A study of Mus musculus with 4 samples.

Results

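The B cell receptor signalling and maturation genes described here are 8 genes taken by symbol: Cd79a, Cd79b, Ighm, Blnk, Pou2af1, Cd24a, Bst1 and Ms4a1. The genes of V(D)J recombination were left out of this set. Of these, 7 have a row among the 16673 genes of the deposited table. Ms4a1, which encodes the B cell surface protein CD20, has no row and was not analysed here. RNA was sequenced from Lin– bone marrow cells, the fraction that remains after cells with markers of mature blood lineages are removed, of 2-month-old mice. Both control mice carried the floxed Tet3 alleles without Cre (Tet3F/F), and both cKO mice carried the same alleles with Tie2-driven Cre (Tie2+/cre; Tet3F/F), so each group held 2 mice and each mouse gave 1 library. Tie2 (Tek) is active in endothelial cells and in the precursors of blood, so the Cre is not specific to B cells. TET3 is an enzyme that oxidises 5-methylcytosine in DNA.

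The B cell receptor is a membrane immunoglobulin, whose heavy chain is at first of the mu class, bound to the signalling chains CD79A and CD79B. When the receptor is engaged, kinases of the Src family and SYK phosphorylate the tails of these chains, and the adaptor BLNK then joins SYK to BTK and phospholipase C gamma 2. The same chains and BLNK serve the pre-B cell receptor of early B cells in the marrow, and mature B cells carry lineage markers that a lineage depletion usually targets. Transcripts of the unrearranged mu locus are also known in progenitors, and CD24 and BST1 are not restricted to B cells.

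The 4 libraries held 39199593, 46673855, 28845037 and 30020188 reads counted to genes (control replicates 1 and 2, cKO replicates 1 and 2). Levels below are normalized counts, that is reads divided by a size factor per library, and a log2 fold change is the cKO mean minus the control mean of log2(normalized count + 1), so that changes of low genes come out too small. Tet3 itself had 5056 and 6593 normalized counts in control-labelled libraries and 6400 and 5084 in cKO-labelled ones. A whole-gene count need not show a floxed deletion, so this checks neither the genotype nor the labels, and directions are those of cKO-labelled libraries. The libraries also differed in sex: Xist had 6 and 12 reads in control-labelled ones and 74905 and 42609 in cKO-labelled ones, while the Y genes Ddx3y, Eif2s3y, Kdm5d and Uty had 0 reads in both cKO-labelled ones. Genotype and sex therefore cannot be told apart in any comparison below. Control replicate 2 stood apart from the others, with 8.16% of its reads from the 13 mitochondrial protein genes against 0.989% to 1.26%.

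The Lin– libraries held transcripts of progenitors and of B lineage cells. Kit, Cd34 and Flt3, markers of stem and progenitor cells, had between 4999 and 14050 normalized counts in each library, and Ly6a between 271 and 569. Among the defining B cell markers, Pax5, the factor that commits cells to the B lineage, had 8 and 14 reads in control-labelled libraries and 166 and 13 in cKO-labelled ones. It was thus detected in every library at low depth, and cKO replicate 1 was far above the other 3. Some transcripts linked to antibody-secreting cells, which switch Pax5 off, were abundant. Igkc, the kappa light chain constant region, had 9510 to 57230 normalized counts and Jchain, which joins secreted antibodies, 5417 to 17512. Other plasma cell markers ranged widely: Xbp1 had 4793 to 8188 normalized counts, and Sdc1 and Irf4 had 155 to 832. Tnfrsf17, Mzb1, Prdm1 and Derl3 had only 4 to 143 reads per library.

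Promoter sequences were found for 3 of the 8 genes in RefSeq's table (GRCm38.p6), a build other than that of the reads, and they are shown for these 3, Cd79a, Pou2af1 and Blnk, because the table holds them. Only bases outside GENCODE M21 exons are printed for the first pair, and for Blnk, whose window begins inside an annotated exon, only 30 bases around an octamer. This stretch, like that around the E-box of Blnk, overlaps an annotated exon. Capitals mark the motifs searched, and ATTTGCAT in the Blnk line is the octamer read on the opposite strand.
Cd79a, chr7:24897247-24897380, plus strand, 250 to 117 bases before the RefSeq start: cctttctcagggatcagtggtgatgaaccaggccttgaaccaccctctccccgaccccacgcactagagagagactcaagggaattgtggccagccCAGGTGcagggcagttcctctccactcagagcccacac
Pou2af1, chr9:51213440-51213689, plus strand, the 250 bases before the RefSeq start: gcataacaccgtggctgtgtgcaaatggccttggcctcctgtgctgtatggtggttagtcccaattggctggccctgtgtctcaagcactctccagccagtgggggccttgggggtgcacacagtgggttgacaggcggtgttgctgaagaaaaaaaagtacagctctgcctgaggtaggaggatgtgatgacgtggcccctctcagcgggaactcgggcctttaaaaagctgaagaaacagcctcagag
Blnk, chr19:40994333-40994362, minus strand: tactggaagggATTTGCATgcccaataagg

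Motifs were searched on both strands in the 250 bases before each start. The octamer ATGCAAAT, to which POU factors bind together with the POU2AF1 coactivator, occurred in the Blnk window, its first base 130 bases before the start, and in 1.60% of 32851 windows in the table. The E-box CAGGTG, a form bound by E2A, occurred 154 bases before the Cd79a start and 160 bases before the Blnk start, and in 17.2% of all windows. TATAAA (12.4% of windows) had no match in the 3 windows, and the Pou2af1 window had no match to any of these motifs. The motifs do not overlap one another here, and a match in these letters is a description only.

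None of the 7 members passed the test between groups. On average Blnk had 2.78 times the level in cKO-labelled libraries, and Bst1 was 2.14 times as high in control-labelled ones. The other 5 members differed by less, with mean ratios of cKO to control from 0.737 for Cd24a to 1.56 for Cd79a. With limma and Benjamini-Hochberg adjustment over 16598 genes, 0 of 7 members had an adjusted p under 0.05, against 0.0723% of all genes. At an unadjusted p under 0.05 there were 2, Blnk and Bst1, where 6.1% of all genes passed. On the recovered reads edgeR called 0 of 7 (0.0728% of all genes) and DESeq2 0 of 7 (0.686%). The members' median log2 fold change was 0.18, with 4 above 0 and 3 below, beside 0.01 over all genes tested.

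**Figure D1:**
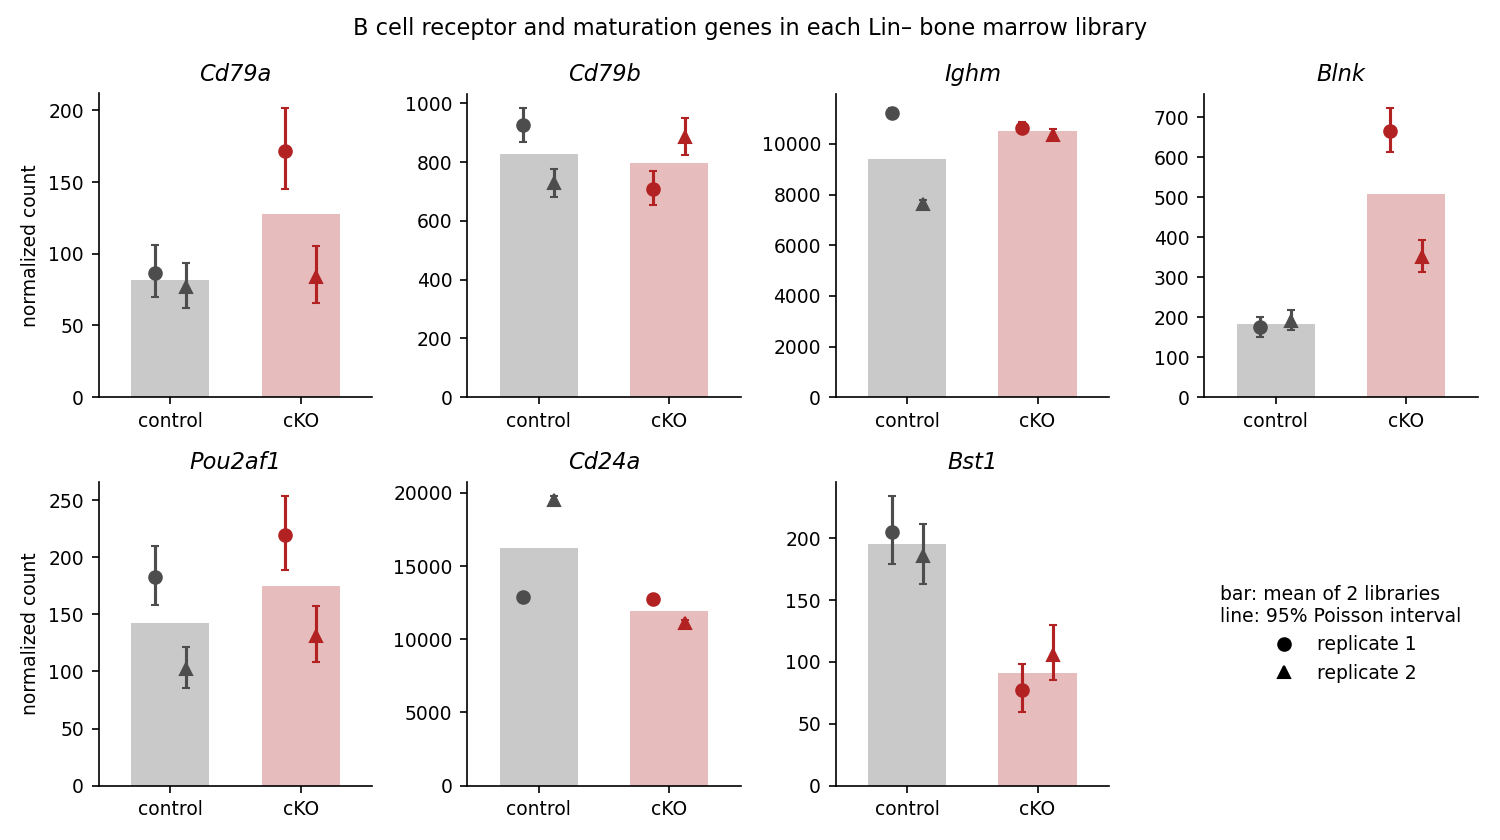
Normalized counts of the 7 members (vertical axes from 0, one scale per gene) in each library; bars are group means of 2 libraries, circles and triangles are replicates 1 and 2, and lines are exact 95% Poisson intervals, which cover counting error only. The points of both groups lie apart for Blnk, Bst1 and narrowly Cd24a, and overlap for the other 4 genes.

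Levels between genes were compared as normalized counts per kilobase of annotated exon. Cd24a (mean 5456 per kb over the 4 libraries) and Ighm (5280) were the highest, and their ranges overlapped. Cd79b followed at 567 per kb, below Ighm in 4 of 4 libraries and without overlap. Cd79a was lower again at 71.9 per kb, also without overlap with Cd79b. Pou2af1 (62.3), Blnk (57.7) and Bst1 (43.2) came next, and each of these neighbours, like Cd79a and Pou2af1, overlapped in range, so the order among the last 4 genes is not resolved. The pair of chains that assemble together in the receptor thus differed in transcript level, by 10.9- and 9.67-fold per kb in control-labelled libraries and by 4.21- and 10.7-fold in cKO-labelled ones. Only cKO replicate 1 had a ratio under 9.

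Cd79a encodes the alpha signalling chain of the receptor. It had 86.8 and 76.6 normalized counts in control-labelled libraries and 172 and 83.9 in cKO-labelled ones. cKO replicate 1 was high and cKO replicate 2 lay between the controls, so the groups overlapped. The 95% Poisson interval of cKO replicate 1 (145 to 202) did not reach those of the other 3 libraries, the highest of which ended at 106. Its log2 fold change was 0.55 (SE 0.49, 95% interval -0.59 to 1.70; limma with Benjamini-Hochberg, adjusted p = 0.80), and it was 0.04 without cKO replicate 1 and 1.06 without cKO replicate 2.

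Cd79b encodes the beta signalling chain. Its levels were 925 and 727 normalized counts in control-labelled libraries and 710 and 885 in cKO-labelled ones. No library stood apart and the groups overlapped throughout. On the log2 scale the difference was -0.05 (SE 0.25, 95% interval -0.62 to 0.53; limma with Benjamini-Hochberg, adjusted p = 0.97), an interval that holds changes up to 1.54 times lower and 1.44 times higher.

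Ighm, the constant region of the mu heavy chain, had 11218 and 7611 normalized counts in control-labelled libraries and 10642 and 10363 in cKO-labelled ones. Control replicate 2 was the low library, and control replicate 1 lay above both cKO-labelled ones. The log2 fold change was 0.18 (SE 0.23, 95% interval -0.36 to 0.72; limma with Benjamini-Hochberg, adjusted p = 0.86). Leaving out control replicate 1 gave 0.46, and leaving out control replicate 2 gave -0.10. Relative to Cd79a plus Cd79b in the same library, Ighm stood at 11.1 and 9.47 in control-labelled libraries and at 12.1 and 10.7 in cKO-labelled ones (exact two-sided permutation test over libraries, p = 0.67). The groups overlapped on this scale too. The denominator, also used below, was mostly Cd79b. Cd79b stood at 10.7 and 9.50 times Cd79a in control-labelled libraries and at 4.14 and 10.5 times in cKO-labelled ones. 2 libraries against 2 cannot give an exact p under 0.33.

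Blnk encodes the adaptor that links the receptor's kinases to calcium signalling. It had 174 and 191 normalized counts in control-labelled libraries and 667 and 350 in cKO-labelled ones. Both cKO-labelled libraries were above both control-labelled ones, and cKO replicate 1 was the higher. Its log2 fold change was 1.40 (SE 0.37, 95% interval 0.53 to 2.27; limma with Benjamini-Hochberg, adjusted p = 0.75), and Blnk had rank 140 of 16598 by p-value. Leaving out each library gave 0.94 (without cKO replicate 1) to 1.86 (without cKO replicate 2). DESeq2 on the recovered reads had a Benjamini-Hochberg adjusted p of 0.0505, just over the threshold, within a range of 0.0505 to 0.9998 over the 16 alternatives. Per Cd79a plus Cd79b, Blnk stood at 0.172 and 0.238 in control-labelled libraries and 0.756 and 0.362 in cKO-labelled ones, a difference of 1.37 on the log2 scale, with no overlap (exact two-sided permutation test, p = 0.33, the smallest that 2 against 2 allows). Blnk was the single member with both cKO-labelled libraries above both control-labelled ones, 1 of 7 against 19.2% of all genes.

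Pou2af1 encodes a coactivator of B cells that binds the octamer together with the POU factors OCT1 and OCT2. It had 183 and 102 normalized counts in control-labelled libraries and 219 and 131 in cKO-labelled ones. Within each group replicate 1 was the higher, so the spread inside the groups was larger than the difference between them. On the log2 scale the difference was 0.31 (SE 0.46, 95% interval -0.76 to 1.38; limma with Benjamini-Hochberg, adjusted p = 0.88), and it turned to -0.11 without control replicate 2 and -0.06 without cKO replicate 1. Its partners Pou2f1 (1397 and 1097 against 2346 and 1388 normalized counts) and Pou2f2 (2619 and 2098 against 2397 and 2155) also overlapped between groups and did not pass. An annotated intronic gene, Gm47828, lies within Pou2af1 on the same strand.

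Cd24a encodes the heat-stable antigen, a surface glycoprotein of developing B cells that red cell precursors and granulocytes carry too. It had 12906 and 19504 normalized counts in control-labelled libraries and 12768 and 11123 in cKO-labelled ones. Control replicate 2 was high, and the other 3 libraries lay close together, with both cKO-labelled ones narrowly below control replicate 1. The log2 fold change was -0.41 (SE 0.25, 95% interval -0.99 to 0.16; limma with Benjamini-Hochberg, adjusted p = 0.76), and leaving out control replicates 1 and 2 in turn gave -0.71 and -0.12. The 10 erythroid markers, all detected in every library, summed to 30139 and 83867 normalized counts in control-labelled libraries and to 38931 and 12414 in cKO-labelled ones. Control replicate 2 was thus highest and cKO replicate 2 lowest for both, and 10 of 10 erythroid markers had a log2 fold change below 0. The part of these cells in the Cd24a values was not tested. In RNA from a mixed fraction, fewer cells of a type and less RNA per cell cannot be told apart.

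Bst1 encodes a surface enzyme of the CD38 family, known as BP-3 on early B cells and first described on marrow stromal cells. It had 205 and 186 normalized counts in control-labelled libraries and 77.0 and 106 in cKO-labelled ones. Both cKO-labelled libraries were below both control-labelled ones, and the replicates of each group lay close to one another. Its log2 fold change was -1.10 (SE 0.39, 95% interval -2.02 to -0.19; limma with Benjamini-Hochberg, adjusted p = 0.76), with a range of -1.33 to -0.88 when each library was left out. Per Cd79a plus Cd79b the groups did not overlap either, at 0.203 and 0.231 against 0.0874 and 0.109 (exact two-sided permutation test, p = 0.33). Bst1 and Cd24a were the 2 of 7 members with both cKO-labelled libraries below both control-labelled ones, where 19.5% of all genes were.

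The 12 marrow stromal and bone cell markers, with none at 0, summed to 29339 and 26979 normalized counts in control-labelled libraries and to 14219 and 17623 in cKO-labelled ones, in the same order as Bst1. The highest of these markers in control-labelled libraries were Col1a1 (10275 and 8090 against 1258 and 3299) and Col1a2 (7068 and 6709 against 1042 and 2854). Of these markers 7 had a log2 fold change below 0, Cxcl12 only slightly (-0.03). The 5 above 0 were Lepr, Kitl, Vcam1, Adipoq and Runx2, so the list did not move as a whole. With limma 0 passed. At an unadjusted p under 0.05, 6 were lower and 1, Runx2, was higher (6.1% of all genes in either direction). DESeq2 on the recovered reads called 5 lower (0.686% of all genes in either direction). Neutrophils are another cell type known to carry BST1. The 13 neutrophil markers with a row summed to 595513 and 187427 in control-labelled libraries and to 374073 and 468870 in cKO-labelled ones, which overlap. The largest part of that sum was Mpo (343617 and 82908 against 247093 and 263946), so it says little of the lower markers. Of the 13 markers 8 had a log2 fold change below 0 and 5 above. Their median was -0.34, and 0.46 without control replicate 1. Both cKO-labelled libraries were below both control-labelled ones in 1, Camp (19.5% of all genes), and above them in 1, Mmp9 (19.2%). The part of either cell type in the Bst1 values was not tested. Bst1 overlaps Fbxl5 on the opposite strand in GENCODE M21, and since the strand setting of the counting is not given, reads of the shared stretch cannot be assigned to one of them. Fbxl5 had 2047 and 2677 against 1920 and 2333 normalized counts, and did not follow the order of Bst1. Cd38, the paralog of Bst1, had 85.9 and 128 against 222 and 139, with a log2 fold change of 0.74 (SE 0.43; 0.40 to 1.07 with each library left out) that did not pass.

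**Figure D2:**
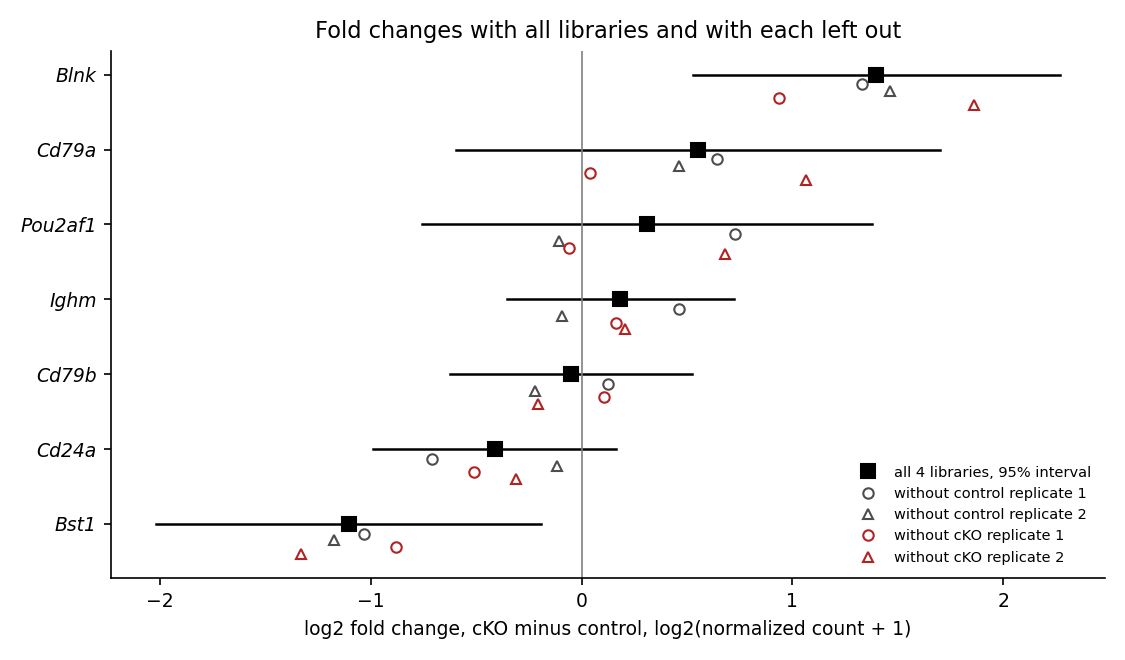
Log2 fold change of each member (horizontal axis, cKO minus control): black squares with lines are the fit to all 4 libraries with its 95% interval, and open symbols are the fits with 1 library left out. Blnk and Bst1 kept their side of 0 by 0.88 or more in all 4 fits, whereas Cd79b, Ighm and Pou2af1 changed sign and Cd79a was at 0.04 without cKO replicate 1.

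The other genes of B cell receptor signalling, 30 in all and each with a row, had a median log2 fold change of 0.12. 0 passed in either direction (limma, Benjamini-Hochberg), with 2 higher and 1 lower at an unadjusted p under 0.05 (6.1% of all genes). In 8 of 30 both cKO-labelled libraries were above both control-labelled ones (19.2% of all genes) and in 3 of 30 below (19.5%). The core kinases and enzymes, which myeloid cells share, did not pass either. SYK's gene Syk had a log2 fold change of 0.12 (95% interval -0.33 to 0.56) and Btk of -0.03 (-0.45 to 0.39). Plcg2, the phospholipase, had 0.14 (-0.59 to 0.86) and Lyn, a Src family kinase, -0.18 (-0.73 to 0.38). Ptpn6, a phosphatase that restrains the receptor, had an interval of -0.63 to 0.63.

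Other genes of this pathway are more restricted to the B lineage. Blk, the B lymphoid Src family kinase, had 75.7 and 95.7 normalized counts in control-labelled libraries and 339 and 133 in cKO-labelled ones. Its log2 fold change was 1.31 (SE 0.51; limma with Benjamini-Hochberg, adjusted p = 0.76) and 0.64 without cKO replicate 1. Cd22, an inhibitory co-receptor, had 184 and 235 against 524 and 364 (1.07, SE 0.33; limma with Benjamini-Hochberg, adjusted p = 0.76). Cd72, another inhibitory co-receptor, had 394 and 373 against 462 and 453 (0.25, SE 0.26). In Blk and Cd22, as in Blnk and Cd79a, cKO replicate 1 was the highest library. None of these genes passed.

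The B cell maturation list had 20 of its 22 genes in the table (Cr2 and Fcmr had no row). Its median log2 fold change was 0.40 and 0 passed (limma, Benjamini-Hochberg). At an unadjusted p under 0.05, 3 were higher and 0 lower (6.1% of all genes in either direction). Both cKO-labelled libraries were above both control-labelled ones in 9 of 20 (19.2% of all genes) and below them in 2 (19.5%). DESeq2 on the recovered reads called 1 of 20, Ikzf3, higher (0.686% of all genes in either direction). Ighd, the delta heavy chain that marks mature naive B cells, had 87.7 and 120 against 133 and 116 normalized counts, and the groups overlapped. Cd37, a tetraspanin of leukocytes, had 5742 and 4784 against 4553 and 4861. Tnfrsf13c, the BAFF receptor that sustains mature B cells, had 122 and 137 against 176 and 165 (log2 fold change 0.40, SE 0.36). Spib, an ETS factor of B cells and plasmacytoid dendritic cells, had 477 and 447 against 1094 and 572 (0.78, SE 0.33), and 0.31 without cKO replicate 1. The 9 plasmacytoid dendritic cell markers with a row summed to 15417 and 16424 in control-labelled libraries and 20550 and 16286 in cKO-labelled ones, again highest in cKO replicate 1. Much of that sum came from Runx2 (4892 and 4174 against 7775 and 5471), which is also on the stromal list. Of the 9 markers 7 had a log2 fold change above 0. The other 2, Bst2 and Ly6d, were lower in both cKO-labelled libraries. The part of plasmacytoid dendritic cells in Spib and Blnk, which these cells can express, was not tested.

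The early B cell list holds genes linked to the stage before the receptor is complete, and 14 of its 15 had a row (Vpreb2 had none). Their levels differed widely. Control means were 9.28 for Pax5 and 48.2 for Ebf1, but 1855 for Erg, 5374 for Sox4 and 8660 for Cd93, named here for their levels. The part of cells other than B cells in the list was not tested. All 14 lay above 0 on the log2 scale (median 0.51), and 0 passed (limma, Benjamini-Hochberg). At an unadjusted p under 0.05, 1 of the 14 was higher (6.1% of all genes in either direction). In 9 of the 14 both cKO-labelled libraries were above both control-labelled ones, where 19.2% of all genes were. These 9 were Rag2, Cd93, Lef1, Pax5, Vpreb3, Il7r, Igll1, Erg and Dntt. DESeq2 on the recovered reads called 1 of the 14, Lef1, higher (0.686% of all genes in either direction). The median was 0.20 without cKO replicate 1 and 1.42 without cKO replicate 2. Pax5, with the reads given above, had a log2 fold change of 2.46 (SE 1.17) that was 0.66 without cKO replicate 1. Rag1, the recombinase gene, had 81.2 and 191 against 388 and 73.5 normalized counts, and Ebf1, a factor that activates Cd79a, had 46.2 and 50.2 against 131 and 23.0. For both, cKO replicate 1 was the highest library and cKO replicate 2 the lowest. The log2 fold changes of Rag1 (0.44) and Ebf1 (0.19) turned to -0.76 and -1.04 without cKO replicate 1. Igll1, a surrogate light chain gene, had 22 and 0 reads against 96 and 18. Vpreb1, its partner, had 15 and 36 reads against 27 and 17, and Vpreb3, a B lineage gene of the same family, 16 and 23 against 39 and 26.

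**Figure D3:**
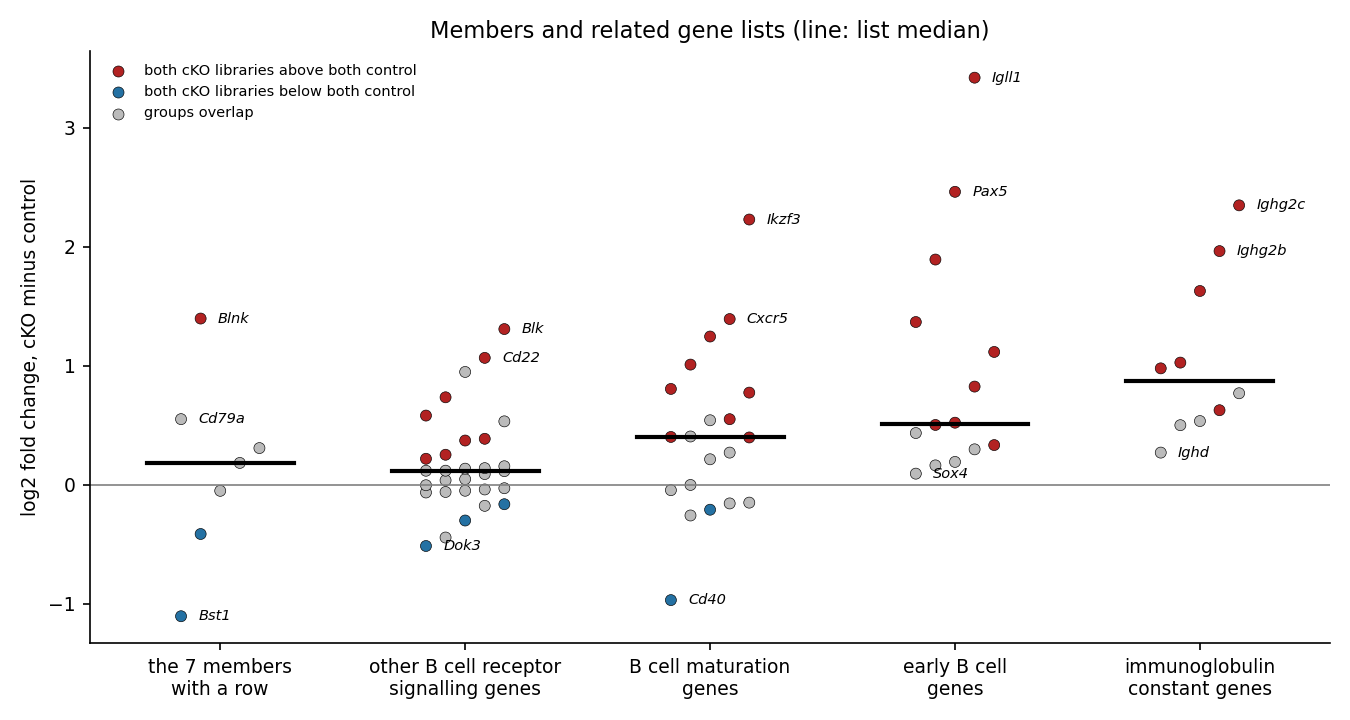
Log2 fold changes (vertical axis, cKO minus control) of the 7 members and of 4 related lists; each point is a gene, black lines are list medians (0.18, 0.12, 0.40, 0.51 and 0.87 from left to right), and colours show whether both cKO libraries lie above or below both control libraries. No gene shown passed with limma, DESeq2 on the recovered reads called Ikzf3 and Lef1 higher, and the value of Igll1 depends on the pseudocount because control replicate 2 had 0 reads.

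The other immunoglobulin constant genes, which include the light chains and the switched heavy chain classes, were listed apart from Ighm. All 10 lay above 0 on the log2 scale (median 0.87), and 0 passed (limma, Benjamini-Hochberg). At an unadjusted p under 0.05, 4 of the 10 were higher (6.1% of all genes in either direction). In 6 of the 10 both cKO-labelled libraries were above both control-labelled ones (19.2% of all genes). Igkc, the kappa constant region, had 31050 and 9510 normalized counts in control-labelled libraries and 49421 and 57230 in cKO-labelled ones (1.63, SE 0.49). Leaving out control replicate 2 gave Igkc a log2 fold change of 0.78. Leaving out control replicate 1 gave Igkc 2.48, with control replicate 2 as the only control. Iglc2, a lambda constant region, had 884 and 569 against 872 and 1680 (0.77, SE 0.36), with overlap and a range of 0.30 to 1.24 when each library was left out. Control replicate 2 was the lowest library for Ighm, Igkc and Iglc2 alike. The 8 plasma cell markers summed to 19807 and 11007 in control-labelled libraries and to 21623 and 25517 in cKO-labelled ones, with control replicate 2 lowest as well. Their part in the immunoglobulin values was not tested, and immunoglobulin genes share sequence, so their counts are uncertain.

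**Figure D4:**
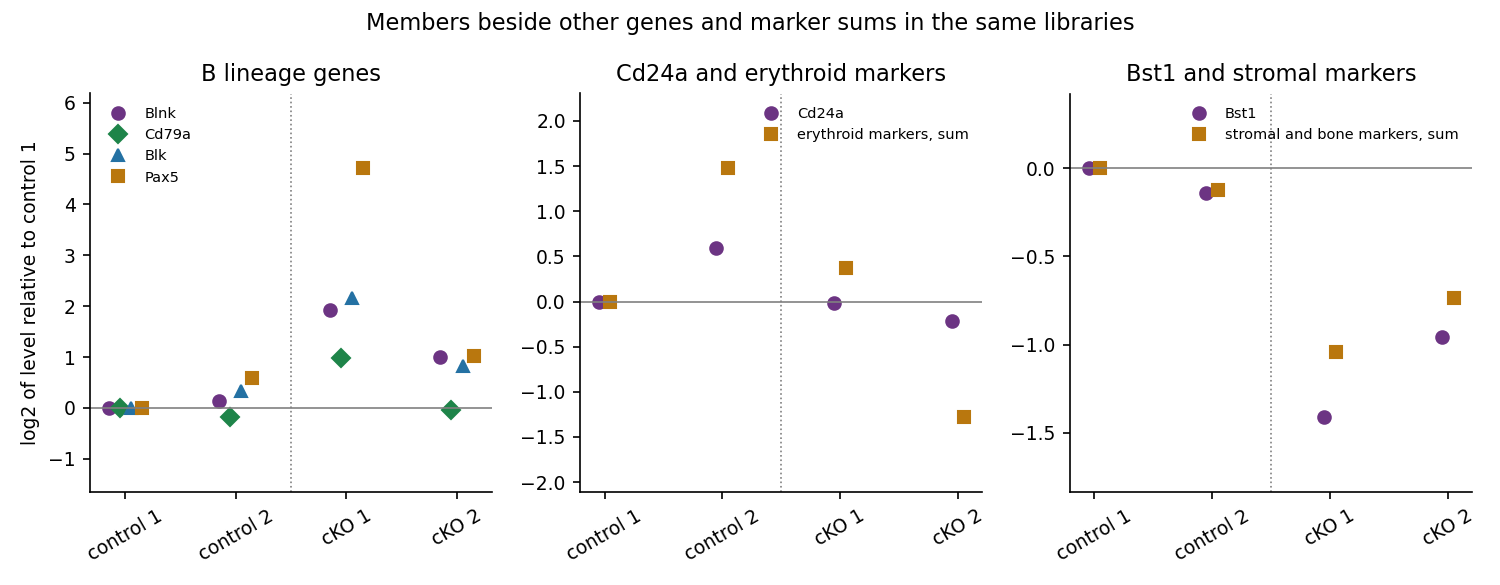
Log2 of the normalized count relative to control replicate 1 (vertical axis) in the 4 libraries, for Blnk, Cd79a, Blk and Pax5 (left; Blk and Pax5 were chosen for display after their values were seen), Cd24a with the erythroid marker sum (middle) and Bst1 with the stromal and bone marker sum (right). The 4 genes at the left are highest in cKO replicate 1, Cd24a and the erythroid sum are highest in control replicate 2, and Bst1 and the stromal sum are lower in both cKO libraries. Members not drawn were not uniform: Pou2af1 was also highest in cKO replicate 1, but Cd79b was lowest there and Ighm was highest in control replicate 1.

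The genes nearest to each member were ranked by the Euclidean distance between centred log2 profiles over the 4 libraries, among 11700 genes with a mean of at least 50. Blnk lay nearest to Rora (distance 0.14), Fasl (0.17) and Cd4 (0.19), and 38 genes lay within 0.5 of it. Bst1 lay nearest to Lpl (0.12), Perm1 (0.15) and Erbb3 (0.16), with 97 genes within 0.5. Cd79a lay nearest to Ankhd1 (0.08), Slc24a3 and Kat6b (both 0.13), with 392 genes within 0.5, and Pou2af1 to Mbnl3 (0.10), Atp1b1 (0.10) and Lyst (0.12), with 661. The flat profiles had many neighbours. Cd79b had 5295 genes within 0.5 (nearest Pop4, Manba and Sdhb), Ighm 4631 (Atp11b, Nnt and Il1rn) and Cd24a 2634 (Trip6, Helq and Msh5). With 4 libraries such a distance describes likeness only.

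Rora, Fasl and Cd4, the neighbours of Blnk, are genes of T and innate lymphoid cells. All 13 T and NK cell markers were detected in every library, and 12 of them had a log2 fold change above 0 (median 1.48), with 0 passing (limma, Benjamini-Hochberg) and 10 higher at an unadjusted p under 0.05, as 6.1% of all genes were in either direction. DESeq2 on the recovered reads called 3 of the 13 higher, Klrb1c, Cd3g and Trbc2 (0.686% of all genes in either direction). Their summed level was 9348 and 6198 normalized counts in control-labelled libraries and 9417 and 9602 in cKO-labelled ones, most of it from Nkg7, a granule gene (8474 and 4671 against 4975 and 6616). The part of these cells in the Blnk values was not tested.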

How the data were processed

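The authors deposited a signal for each gene and library, its read count divided by a DESeq2 size factor, as the file's name, its values and the submitters' processing notes give it. Those notes name Trim Galore (0.6.7), STAR (2.7.9a), SAMtools, featureCounts and DESeq2, on build mm39. Their settings, annotation and strand: not given in the sources used here. Columns named WT were taken as control by group and replicate number. The table holds no row with fewer than 41 reads over the 4 libraries. All values were whole multiples of 1 read (100% within 0.1 read), so reads were recovered by division.

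Groups were compared with limma (3.58.1, in R 4.3.3), using empirical Bayes with a mean-variance trend on log2 values of the normalized count plus 1. Tests were two-sided, p-values were adjusted over all 16598 genes whose mean reached 10, and the threshold was 0.05. edgeR 4.0.16, which called 12 genes on the recovered reads, and DESeq2 1.42.0 were alternatives. The steps were tested on counts simulated with the same variability for every gene. That run does not measure power or error in these libraries.

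Members and lists were chosen with earlier results of these data known. The genes named outside the members were fixed by symbol, except where stated, and neighbours by distance. 1 of these genes, and a ratio that used it, are not reported here. Exon lengths are unions of GENCODE M21 exons by symbol.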

Additional observations from a re-analysis of the deposited data

How the results depend on the processing

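Under the 16 alternatives 0 members passed in either direction, and Cd79a, Blnk, Cd24a and Bst1 kept their sign. The sign changed for Cd79b (-0.22 to 0.12 with each library left out), Ighm (-0.10 to 0.46) and Pou2af1 (-0.11 to 0.73), in each case only with a library left out. Blnk had an unadjusted p under 0.05 in 15 of the 16 and Bst1 in 13. The members' median ran from -0.11 to 0.46. Over all genes, 5 were called higher and 7 lower. Higher calls numbered 2 with a mean of at least 50, 2 with quantile normalization, 2 without a variance trend, 1 without Xist, Tsix and Y genes and 73 with DESeq2, which called 37 lower. Without Xist, Tsix and Y genes 1 was lower. With each library left out, higher calls ran from 4 to 231 and lower calls from 8 to 161, the largest of both without control replicate 1, where control replicate 2 was the only control. A group then has 1 library, assumed to vary like the others.

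With the replicate number as a block, 3 genes were called higher and 5 lower, and 0 members. Replicate numbers are not said to pair mice, and deviations of same-numbered libraries correlated at -0.07 over genes.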

Other observations

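Some genes of the signalling, maturation and early B cell lists had log2 fold changes from 0.51 to 2.23 in size. They are named after their values were seen, and none passed with limma and Benjamini-Hochberg adjustment on all 4 libraries. DESeq2 on the recovered reads called Ikzf3 (Benjamini-Hochberg adjusted p = 0.000355) and Lef1 (0.0256) higher. Over 6 alternatives their adjusted p ran up to 0.9998, without cKO replicate 1. Ikzf3, which encodes the lymphoid factor Aiolos, had 148 and 93.3 normalized counts in control-labelled libraries and 800 and 385 in cKO-labelled ones (a log2 fold change of 2.23, SE 0.44). Lef1, a factor of early B and T cells, had 40.6 and 63.0 against 202 and 180 (1.89, SE 0.44). Irf4, a factor of late B cell stages, had 229 and 155 against 560 and 358 (1.25, SE 0.36). Bach2, a repressor of mature B cells that T cells also carry, had 291 and 380 against 884 and 510 (1.01, SE 0.34). Cd40, a co-stimulatory receptor, went the other way, with 155 and 181 against 63.0 and 115 (-0.97, SE 0.45), and so did Dok3, an adaptor that restrains the receptor (-0.51, SE 0.22). In each of these 6 genes the 2 groups did not overlap. Over all genes, both cKO-labelled libraries were above both control-labelled ones in 19.2% and below them in 19.5%. Since these 6 were picked by their values, the lack of overlap adds no evidence. Ikzf3, Irf4, Bach2 and, by less, Lef1 were highest in cKO replicate 1, as Blnk was. Without that library the log2 fold change was 0.62 for Bach2, -0.54 for Cd40 and -0.27 for Dok3.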
